A study of Homo sapiens with 16 samples.

Results

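The vacuolar H+-ATPase (V-ATPase), the proton pump of acidic compartments, was described in 2 human triple-negative breast cancer cell lines treated with a YES1 inhibitor. The description covers 10 genes of the pump, taken by name: the paralogues ATP6V0D2 and ATP6V0D1, the further V0 subunits ATP6V0A1 and ATP6V0A2, the V1 subunits ATP6V1A, ATP6V1B2, ATP6V1C1, ATP6V1E1 and ATP6V1H, and the accessory protein ATP6AP1. These are 10 of the 58735 genes in the deposited count table, and all 10 passed the filter on low counts, which left 17647 genes for testing. ATP6V0D2 passed only through YES1i-treated MDA-MB-231, where its libraries held 182 to 245 reads, against 0 to 9 in all other libraries. The set was chosen by the YES1i change of ATP6V0D2 counts, which was large in MDA-MB-231 and not visible in SUM159. The values of that gene are therefore given as a description with no test, and counts over the other 9 genes, which were taken with the results of the same comparisons known, support nothing by themselves.

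The libraries were polyA RNA of MDA-MB-231 treated with 8 uM YES1i (CH6953755) for 48 h, MDA-MB-231 given the solvent DMSO for 48 h, SUM159, which the sample titles spell SUM159PT, with the same YES1i treatment and SUM159 with DMSO, 4 libraries in each group and 16 in all, with a genotype labelled WT. YES1 is a Src family kinase. Both lines lack high ESR1 and PGR messenger RNA (each group averaged under 1 CPM for these 2 of the 3 receptor genes checked), and ERBB2 averaged 112, 108, 109 and 118 CPM in the order of groups just given. MDA-MB-231 was plated in RPMI and SUM159 in Ham's F12, so line and medium cannot be told apart. The series text calls the 4 libraries of a group technical replicates, so the p-values cover only library-to-library spread, which may be technical. In bulk RNA, a change in every cell and a change in the share of cells that express a gene cannot be told apart.

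The V-ATPase is a rotary motor. The V1 sector on the cytosolic side hydrolyses ATP and turns a central stalk, and the membrane-embedded V0 sector uses that rotation to carry protons into lysosomes, endosomes, the Golgi apparatus and secretory vesicles. Several subunits exist as isoforms encoded by separate genes, some used widely and some mainly in cells that pump acid across the plasma membrane, such as osteoclasts and kidney intercalated cells. Many lysosomal genes, V-ATPase genes among them, are known targets of the transcription factors TFEB and TFE3, which bind the E-box letters CACGTG, most often as part of the CLEAR element with the core TCACGTGA.

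To show which of the promoters hold those letters, the 250 bases before the RefSeq start of each gene (GRCh38.p14) were searched on both strands. Promoters were read for 5 of the 10 genes, ATP6V0D1, ATP6V1E1, ATP6V0A1, ATP6V0A2 and ATP6AP1, and for 13 of the other 16 V-ATPase genes. Of the 5, only ATP6V0D1 held the E-box CACGTG, and it held the whole core TCACGTGA, within which the E-box lies. ATP6V1G1, ATP6V0B and ATP6V0E2 held an E-box among the other 13, and ATP6V1G1 the whole core. Over all 35116 RefSeq promoters of this length, 6.34% held CACGTG and 0.854% held TCACGTGA. GGGCGG was in 4 of the 5 against 42.6% of all promoters, CCAAT in 4 of the 5 against 32% of all, and TGACGTCA in 0 of the 5 against 1.65% of all. A match is a description of letters, and no match says only that they are not in this window. Printed 5′ to 3′ on the gene's strand with the core in capitals are the surroundings of the match in ATP6V0D1 at chr16:67481199-67481228 (minus strand), which lie before the RefSeq start but within the gene as the deposited table bounds it, and the promoter of ATP6V1G1 at chr9:114587519-114587745 (plus strand). Also printed are the promoters of ATP6V0A1 at chr17:42458628-42458843, ATP6AP1 at chrX:154428427-154428631 and ATP6V0A2 at chr12:123712103-123712317 (all plus strand), which do not hold the E-box letters. They were picked with their YES1i results known, and a link between the letters and those results was not tested. All printed promoters but that of ATP6V0D1 end before the start of the gene in the deposited table.
ATP6V0D1: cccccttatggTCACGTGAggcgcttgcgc
ATP6V1G1: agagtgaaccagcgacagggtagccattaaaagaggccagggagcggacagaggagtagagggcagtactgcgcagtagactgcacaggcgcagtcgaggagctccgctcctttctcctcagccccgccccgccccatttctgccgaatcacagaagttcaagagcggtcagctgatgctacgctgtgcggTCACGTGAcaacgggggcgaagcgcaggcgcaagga
ATP6V0A1: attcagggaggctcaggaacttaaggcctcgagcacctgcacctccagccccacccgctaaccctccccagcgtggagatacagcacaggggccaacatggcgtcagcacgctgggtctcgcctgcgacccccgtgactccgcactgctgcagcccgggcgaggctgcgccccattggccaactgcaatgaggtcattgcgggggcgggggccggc
ATP6AP1: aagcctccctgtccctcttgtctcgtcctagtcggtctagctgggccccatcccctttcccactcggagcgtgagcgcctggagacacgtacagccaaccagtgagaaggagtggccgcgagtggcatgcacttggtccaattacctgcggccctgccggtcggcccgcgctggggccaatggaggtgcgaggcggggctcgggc
ATP6V0A2: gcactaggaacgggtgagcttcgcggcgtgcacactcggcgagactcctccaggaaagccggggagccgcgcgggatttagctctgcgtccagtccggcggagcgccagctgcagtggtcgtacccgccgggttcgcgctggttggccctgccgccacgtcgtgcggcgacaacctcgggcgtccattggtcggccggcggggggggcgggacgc

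The libraries held 15876171 to 36261542 counts. Levels are given as CPM, counts scaled to TMM effective library sizes. With a limit of 3 counts, a gene with no reads could still stand at 0.0859 to 0.194 CPM, by counting error alone. SUM159 YES1i replicate 2 and SUM159 DMSO replicate 1 stood apart from the other libraries of their groups.

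ATP6V0D2 encodes d2, an isoform of the V0 subunit d that couples the central stalk to the rotating ring of proteolipid subunits. It is best known from osteoclasts, where in mouse the gene is needed for cell fusion. The gene (ENSG00000147614) lies on chromosome 8 from 85987323 to 86154228 on the plus strand of hg38. In MDA-MB-231 the 4 YES1i libraries held 192, 182, 245 and 220 reads, against 7, 6, 5 and 7 reads in the 4 DMSO libraries. As CPM these were 11.005, 11.1, 11.8 and 11.003 with YES1i and 0.339, 0.327, 0.238 and 0.319 with DMSO. No library of either group came near the other group. In SUM159 the YES1i libraries held 3, 2, 2 and 9 reads, against 0, 9, 3 and 1 reads in the DMSO libraries, and the groups overlapped.

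Summed over the group and divided by effective library size, ATP6V0D2 was 36.8-fold higher with YES1i in MDA-MB-231 (839 against 25 reads). The same ratio in SUM159 was 1.38 (16 against 13 reads). The fitted log2 fold changes were 5.17 in MDA-MB-231 and 0.41 in SUM159. The SUM159 value rests on so few reads that single libraries turned it: it ranged from -0.26, without DMSO replicate 1, to 1.77, without DMSO replicate 2, when each SUM159 library was left out in turn. The 4 annotated genes that overlap ATP6V0D2, PSKH2 among them, had 0 reads in all libraries.

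Its paralogue ATP6V0D1 encodes d1, the widely used form of the same subunit, and lies on chromosome 16 from 67438014 to 67481237 on the minus strand. ATP6V0D1 had 78.8, 73.3, 76.5 and 80.3 CPM in YES1i-treated MDA-MB-231, against 60.1, 65.1, 61.7 and 63.6 CPM with DMSO. In SUM159 it had 32.9, 35.3, 33.1 and 32.0 CPM with YES1i, against 50.3, 52.7, 49.9 and 49.8 CPM with DMSO. Every YES1i library was above every DMSO library in MDA-MB-231 and below every DMSO library in SUM159. ATP6V0D1 thus rose in MDA-MB-231 (log2 fold change 0.30, SE 0.054, edgeR quasi-likelihood test, Benjamini-Hochberg adjusted p = 2.58e-05) and fell in SUM159 (-0.60, SE 0.0565, adjusted p = 4.18e-10). The lines differed by 0.91 on the log2 scale (SE 0.0782, edgeR adjusted p = 2.7e-10), the largest difference among the 9 genes tested.

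**Figure D1:**
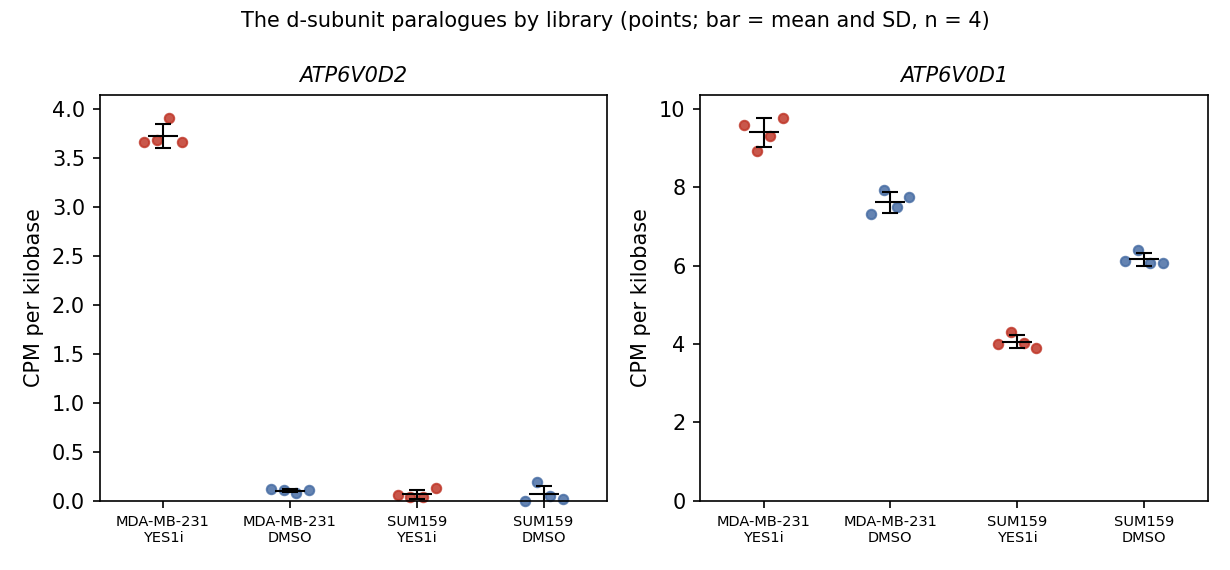
Levels of ATP6V0D2 (left) and ATP6V0D1 (right) in CPM per kilobase of gene length, by group; points are libraries and bars the mean and SD of 4 libraries. ATP6V0D2 stands at 3.72 CPM per kilobase in MDA-MB-231 with YES1i and at or under 0.102 in the other 3 groups, while ATP6V0D1 is highest in the same group and lowest, at 4.06, in SUM159 with YES1i.

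Per kilobase of gene length, the d1 level exceeded the d2 level in every group. The lengths were those of the deposited table, 8212 bases for ATP6V0D1 and 3010 for ATP6V0D2. They may differ from the lengths of the transcripts expressed. Without that division the means in YES1i-treated MDA-MB-231 were 77.2 CPM for ATP6V0D1 and 11.2 CPM for ATP6V0D2. The ratio of mean levels, d1 over d2, was 2.53 in MDA-MB-231 with YES1i and 75.1 with DMSO, and in SUM159 it was 63.3 with YES1i and 95.6 with DMSO. The d2 share of the d1 and d2 levels together was 28.4% ± 1.15 in YES1i-treated MDA-MB-231 and 1.32% ± 0.199 with DMSO (SD, n = 4 each). In SUM159 the share was 1.57% ± 1.14 with YES1i and 0.997% ± 1.32 with DMSO (SD, n = 4 each). In YES1i-treated MDA-MB-231 it ran from 27.2% to 29.5%, whereas no library of the other 3 groups exceeded 3.21%. The summed level of both paralogues was 13.1 ± 0.359 CPM per kilobase in MDA-MB-231 with YES1i and 7.73 ± 0.271 with DMSO, and in SUM159 it was 4.12 ± 0.141 with YES1i and 6.23 ± 0.249 with DMSO (SD, n = 4 each). These shares use the values that chose the set and are a description.

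Because d2 is known from osteoclasts, marker genes of that cell type were read in the same libraries. The 10 osteoclast markers summed to 23.5 to 26.2 CPM in MDA-MB-231 with YES1i and 17.1 to 21.3 CPM with DMSO, and to 55.2 to 64.3 CPM in SUM159 with YES1i and 46.7 to 49.1 CPM with DMSO. DCSTAMP and OCSTAMP, which drive osteoclast fusion, had 0 reads in all MDA-MB-231 libraries. ACP5, tartrate-resistant acid phosphatase, averaged 0.658 CPM in MDA-MB-231 with YES1i and 0.0827 CPM with DMSO, and 0.363 CPM in SUM159 with YES1i and 0.0623 CPM with DMSO. TNFRSF11A supplied most of the SUM159 sums, at 55.0 CPM with YES1i and 45.3 CPM with DMSO. In MDA-MB-231 the means of TNFRSF11A, OSCAR and MMP9 were lower with YES1i (8.58 against 9.43, 0.918 against 1.01 and 0.0277 against 0.099 CPM). Those of CTSK, CALCR, SIGLEC15 and NFATC1 were higher, as was that of ACP5. Of the 7 markers tested, 3 rose and 0 fell in each line at an edgeR adjusted p under 0.05, where 48.9% of all genes tested were called in MDA-MB-231 (26.8% higher and 22.1% lower) and 51.6% in SUM159 (25.1% higher and 26.5% lower). The 8 macrophage and leukocyte markers summed to 12.9 to 15.3 CPM in MDA-MB-231 with YES1i and 10.3 to 12 CPM with DMSO, with CSF1R supplying most of it, and to 2.9 to 3.54 CPM in SUM159 with YES1i and 1.17 to 1.74 CPM with DMSO. The 7 kidney intercalated cell markers, which include 4 V-ATPase isoforms, summed to 15.7 to 16.7 CPM in MDA-MB-231 with YES1i and 15.8 to 18.2 CPM with DMSO, and to 2.03 to 3.09 CPM in SUM159 with YES1i and 1.24 to 2.19 CPM with DMSO. The part of the osteoclast and leukocyte markers in the d2 values was not tested.

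In MDA-MB-231, 8 of the 9 genes other than ATP6V0D2 were higher with YES1i and 0 were lower at an edgeR adjusted p under 0.05, where 48.9% of all 17647 genes were called, 26.8% higher and 22.1% lower. Their median log2 fold change was 0.45, against 0.0343 over all genes tested. In SUM159, 2 of the 9 were higher and 1 was lower, where 51.6% of all genes were called, 25.1% higher and 26.5% lower, and their median was -0.0375, against 0.0225 over all genes. The difference of the YES1i changes, MDA-MB-231 minus SUM159, was above 0 for 8 of the 9 and below 0 for 0 of them, where 31.1% of all genes were called, 19.1% above and 12.1% below. None of the 9 changed 2-fold in either line. Upper quartile scaling moved the median of all genes in SUM159 to 0.142 and the share of calls that were higher to 63.4%, against 48.7% with TMM. Under it 4 of the 9 were higher in SUM159, and the share of line differences above 0 over all genes was 43.9%, against 61.2% with TMM.

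**Figure D2:**
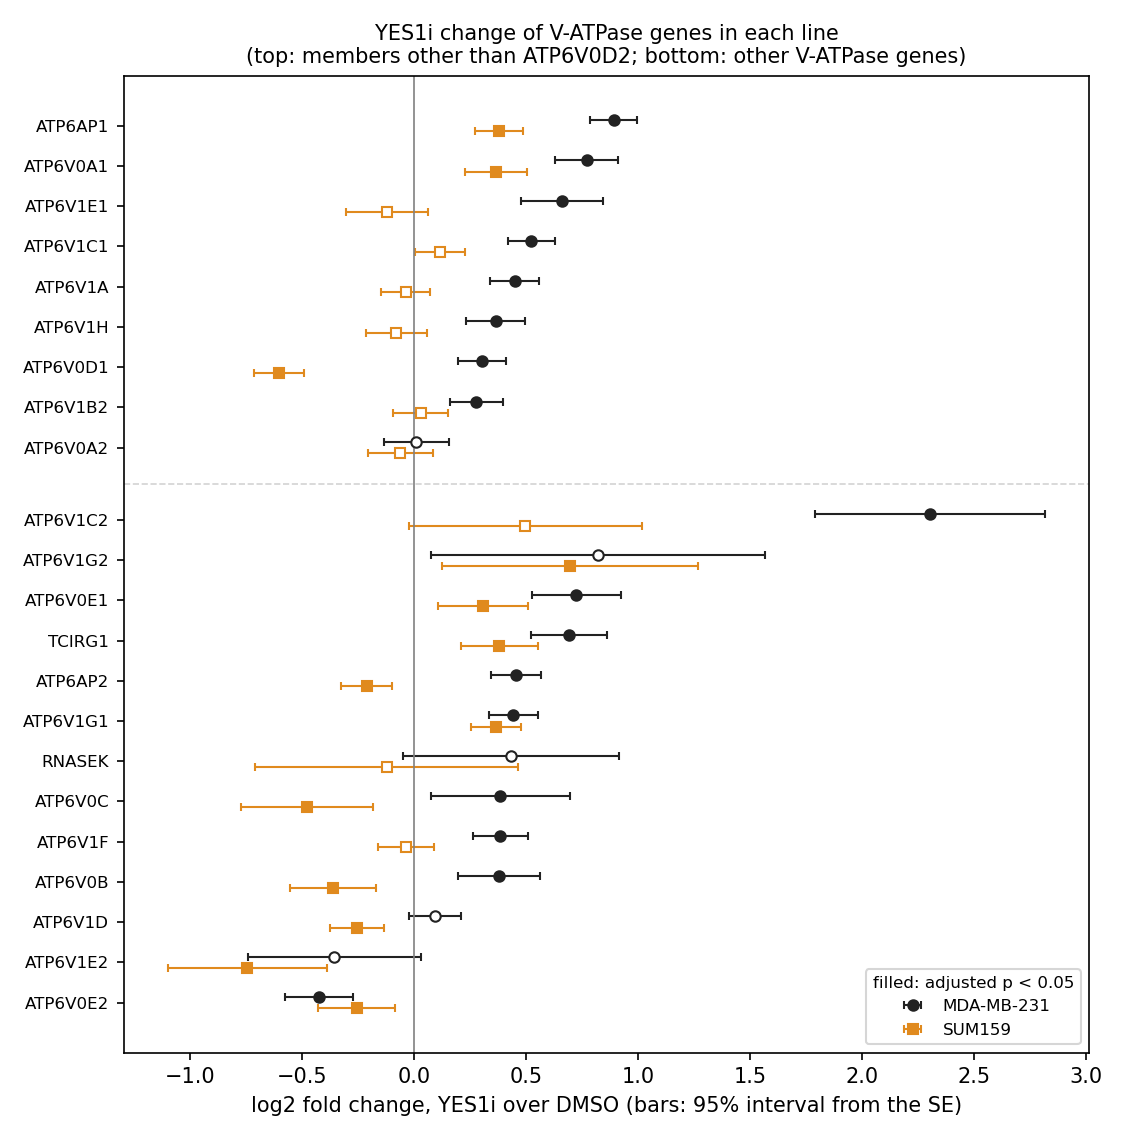
Log2 fold change of YES1i over DMSO in MDA-MB-231 (circles) and SUM159 (squares) for 9 of the 10 genes (top) and 13 other V-ATPase genes (bottom), with 95% intervals from the SE; filled symbols passed an edgeR adjusted p under 0.05. In the top block every MDA-MB-231 point lies to the right of its SUM159 point, and ATP6V0D1 is the gene called in opposite directions.

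Among the V1 subunits, ATP6V1A, the catalytic subunit A, had 92.2, 101, 88.7 and 101 CPM in YES1i-treated MDA-MB-231, against 73.9, 67.3, 70.5 and 68.5 CPM with DMSO. In SUM159 it had 69.3, 71.2, 77.6 and 75.7 CPM with YES1i, against 76.5, 73.6, 77.0 and 74.4 CPM with DMSO. The MDA-MB-231 groups did not overlap and the SUM159 groups did. ATP6V1A rose in MDA-MB-231 (log2 fold change 0.45, SE 0.0557, edgeR adjusted p = 7.32e-08), and its SUM159 change was -0.04 (95% interval -0.147 to 0.0719, adjusted p = 0.602). The difference between the lines was 0.49 (edgeR adjusted p = 1.58e-05).

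ATP6V1B2, the widely used isoform of subunit B, which binds nucleotide beside subunit A without being catalytic, had 94.7, 88.4, 101 and 106 CPM in YES1i-treated MDA-MB-231, against 82.3, 80.1, 79.3 and 80.6 CPM with DMSO. In SUM159 it had 63.8, 63.0, 72.5 and 69.4 CPM with YES1i, against 64.5, 72.2, 64.1 and 62.6 CPM with DMSO. The groups again separated in MDA-MB-231 alone, by 0.28 on the log2 scale (SE 0.0609, edgeR adjusted p = 0.000343), against 0.03 in SUM159 (95% interval -0.0919 to 0.151, adjusted p = 0.718). The line difference of 0.25 (SE 0.0869, edgeR adjusted p = 0.0292) was not called with RLE scaling (0.19, adjusted p = 0.0942), with upper quartile scaling (0.14, adjusted p = 0.223) or with DESeq2 (adjusted p = 0.0965), nor without any of MDA-MB-231 DMSO replicates 2, 3 and 4, MDA-MB-231 YES1i replicates 3 and 4, SUM159 DMSO replicate 2 or SUM159 YES1i replicate 1 (edgeR adjusted p = 0.0557 to 0.1).

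ATP6V1C1 encodes subunit C, which detaches when the pump disassembles. It had 133, 134, 128 and 130.4 CPM in YES1i-treated MDA-MB-231, against 95.4, 89.1, 89.1 and 91.0 CPM with DMSO. The SUM159 values of this gene were 35.4, 40.8, 40.6 and 36.34 CPM with YES1i, against 36.5, 34.6, 36.1 and 33.8 CPM with DMSO. MDA-MB-231 held more of it than SUM159 in every library. It rose in MDA-MB-231 (log2 fold change 0.52, SE 0.0534, edgeR adjusted p = 1.91e-09) and not past the threshold in SUM159 (0.12, adjusted p = 0.0954). The SUM159 change was called with RLE scaling (0.17, adjusted p = 0.0188), upper quartile scaling (0.24, adjusted p = 0.00127) and DESeq2 (0.16, adjusted p = 0.013), and without SUM159 YES1i replicate 1 (edgeR adjusted p = 0.0336). The lines differed by 0.41 (edgeR adjusted p = 0.000167).

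ATP6V1E1, the E subunit of the peripheral stalks that hold the V1 head still, had 101, 109, 116 and 121 CPM in YES1i-treated MDA-MB-231, against 71.1, 66.7, 71.2 and 73.5 CPM with DMSO. In the SUM159 libraries it stood at 63.4, 90.05, 77.6 and 68.4 CPM with YES1i, against 91.7, 72.2, 74.9 and 86.7 CPM with DMSO. The spread within each SUM159 group was the widest, relative to the mean, of the 9 genes, and the groups overlapped. It rose in MDA-MB-231 by 0.66 (SE 0.0935, edgeR adjusted p = 5.97e-06). The SUM159 change was -0.12 (adjusted p = 0.292), and -0.23 (adjusted p = 0.0193) without SUM159 YES1i replicate 2, the library that stood apart. The line difference was 0.78 (SE 0.132, edgeR adjusted p = 0.000115).

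ATP6V1H encodes subunit H, which is needed for activity of the assembled pump and restrains ATP hydrolysis by free V1. It had 47.7, 52.7, 46.0 and 54.2 CPM in YES1i-treated MDA-MB-231, against 37.3, 40.3, 41.7 and 36.6 CPM with DMSO. SUM159 cells showed 28.0, 26.3, 30.1 and 28.2 CPM with YES1i, against 30.0, 29.1, 29.4 and 30.3 CPM with DMSO. The groups were apart in MDA-MB-231 and overlapped in SUM159. The log2 fold changes were 0.36 in MDA-MB-231 (SE 0.0668, edgeR adjusted p = 3.77e-05) and -0.08 in SUM159 (95% interval -0.216 to 0.0566, adjusted p = 0.352), with a line difference of 0.44 (adjusted p = 0.000634).

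**Figure D3:**
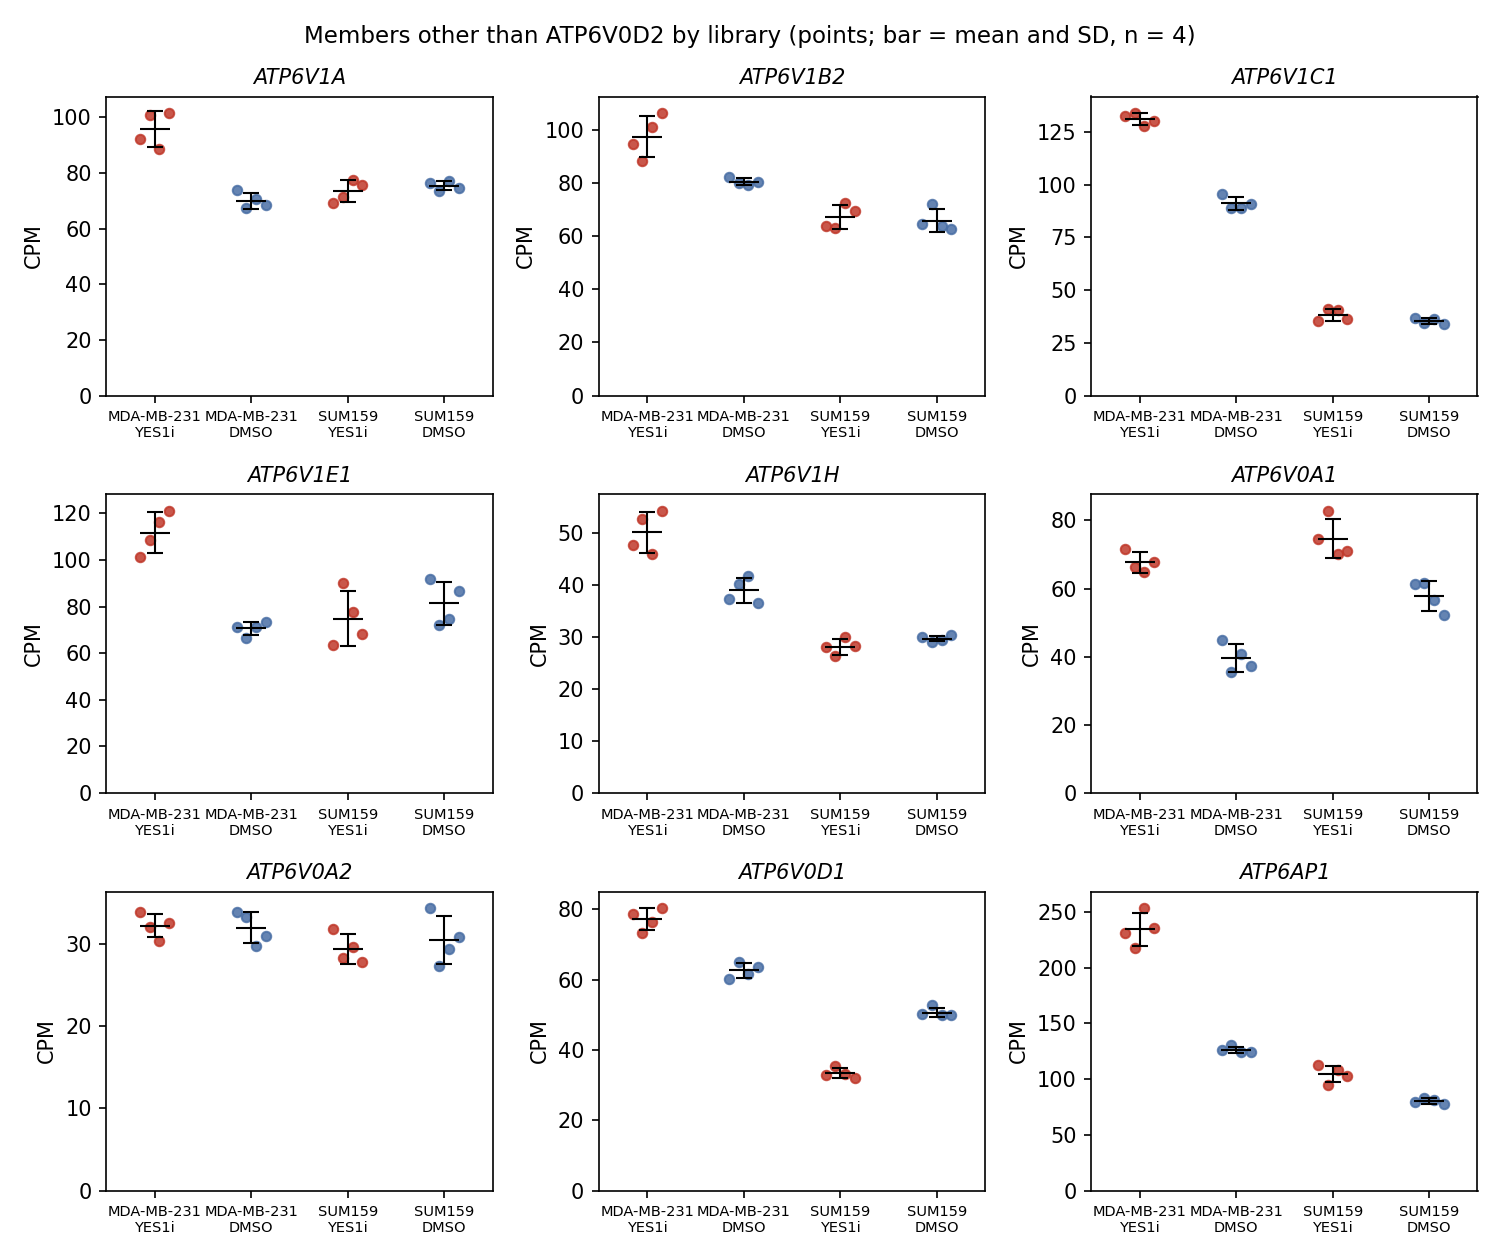
CPM of the 9 genes other than ATP6V0D2 in each library, by group; points are libraries, bars the mean and SD of 4 libraries, and every axis starts at 0. In MDA-MB-231 the YES1i points clear the DMSO points in 8 of the 9 panels, and in SUM159 in 3 panels, above for ATP6V0A1 and ATP6AP1 and below for ATP6V0D1. The share of all genes whose libraries separate in this way was not counted, so these counts describe the panels only.

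In V0, subunit a forms the proton path together with the ring and carries the signals that send the pump to particular membranes. ATP6V0A1 encodes a1, prominent in neurons, and had 71.7, 66.2, 64.8 and 67.9 CPM in YES1i-treated MDA-MB-231, against 44.8, 35.6, 40.8 and 37.2 CPM with DMSO. For SUM159 the levels were 74.5, 82.8, 70.3 and 71.0 CPM with YES1i, against 61.4, 61.5, 56.6 and 52.2 CPM with DMSO. Neither line's groups overlapped. The rise was 0.77 in MDA-MB-231 (SE 0.0719, edgeR adjusted p = 3.16e-10) and 0.37 in SUM159 (SE 0.0701, adjusted p = 6.89e-05), larger in MDA-MB-231 by 0.41 (adjusted p = 0.00225).

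ATP6V0A2 encodes a2, found mainly in the Golgi apparatus and early endosomes. It had 33.8, 32.0, 30.4 and 32.6 CPM in YES1i-treated MDA-MB-231, against 33.8, 33.3, 29.8 and 31.0 CPM with DMSO. The SUM159 values of this gene were 31.8, 28.3, 29.6 and 27.8 CPM with YES1i, against 34.3, 27.2, 29.4 and 30.8 CPM with DMSO. All 4 groups overlapped. Its log2 fold changes were 0.01 in MDA-MB-231 (95% interval -0.134 to 0.155, edgeR adjusted p = 0.937) and -0.06 in SUM159 (95% interval -0.206 to 0.0845, adjusted p = 0.516), so these libraries leave room for a change within those bounds.

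With a1 higher and a2 not measurably different, the a2 share of the a1 and a2 levels per kilobase was lower with YES1i in both lines. In MDA-MB-231 it was 27.3%, 27.8%, 27.2% and 27.7% with YES1i, against 37.6%, 42.7%, 36.8% and 39.9% with DMSO. In SUM159 it was 25.4%, 21.4%, 25.1% and 23.8% with YES1i, against 30.8%, 26.1%, 29.3% and 32.0% with DMSO. The mean difference was -11.7 percentage points in MDA-MB-231 and -5.63 points in SUM159 (two-sided exact permutation test, p = 0.0286 in each line, n = 4 each, Benjamini-Hochberg adjusted p = 0.0286 over the 2 lines, the smallest p that 70 regroupings can give). Whether the 2 differences differ was not tested. The share is computed from the a1 and a2 levels of the same libraries, so its test is not separate from the a1 result.

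TCIRG1 encodes the a3 isoform of lysosomes and the osteoclast border. Its deposited gene length is 4384 bases, against 10955 for ATP6V0A1 and 13729 for ATP6V0A2, which raises its share per kilobase. In CPM, SUM159 with DMSO held 78.8 of TCIRG1, 57.9 of ATP6V0A1 and 30.4 of ATP6V0A2. Counted per kilobase over all 4 a isoforms, TCIRG1 supplied most of the level in every group. Its share was 77.8% ± 1.88 in MDA-MB-231 with YES1i and 72.1% ± 2.12 with DMSO, and 72.2% ± 2.77 in SUM159 with YES1i and 70.4% ± 2.43 with DMSO (SD, n = 4 each). The a1 share was 12.2% in MDA-MB-231 with YES1i and 10.7% with DMSO, against 21.1% in SUM159 with YES1i and 20.8% with DMSO. The a2 share of all 4 was 4.625% in MDA-MB-231 with YES1i and 6.855% with DMSO, against 6.622% in SUM159 with YES1i and 8.752% with DMSO. The share of ATP6V0A4, the a4 isoform of kidney intercalated cells, was 5.44% ± 0.665 in MDA-MB-231 with YES1i and 10.4% ± 0.97 with DMSO, and at most 0.109% in any SUM159 library.

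**Figure D4:**
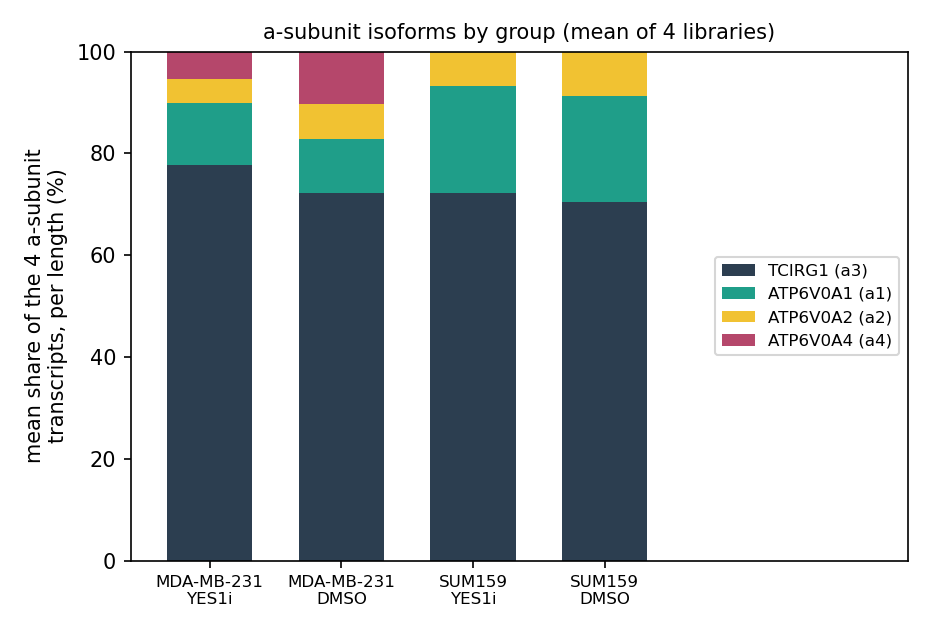
Mean share, over 4 libraries, of each a-subunit gene in the summed CPM per kilobase of all 4 a-subunit genes, by group. TCIRG1 takes 70.4% to 77.8% of each bar, and ATP6V0A4 is visible in MDA-MB-231 alone, at 5.44% with YES1i and 10.4% with DMSO.

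ATP6AP1, also called Ac45, is a transmembrane accessory protein that takes part in assembling V0 and in steering the pump. ATP6AP1 had 231, 218, 253 and 236 CPM in YES1i-treated MDA-MB-231, against 126, 130.2, 124 and 125 CPM with DMSO. In the SUM159 libraries it stood at 113, 95.1, 108 and 103 CPM with YES1i, against 79.3, 83.3, 81.2 and 77.9 CPM with DMSO. Every YES1i library lay above every DMSO library in both lines. Of the 9 genes, it had the largest rise in each line, 0.89 in MDA-MB-231 (SE 0.0536, edgeR adjusted p = 2.48e-14) and 0.38 in SUM159 (SE 0.0548, adjusted p = 1.19e-06), with a line difference of 0.51 (adjusted p = 4.92e-06).

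Per kilobase, the order of the 10 genes was led by ATP6AP1 in MDA-MB-231 (48.0 CPM per kilobase with YES1i and 25.9 with DMSO) and by ATP6V1E1 in SUM159 (23.3 with YES1i and 25.3 with DMSO), where its YES1i libraries overlapped those of ATP6AP1. In MDA-MB-231 the order continued with ATP6V1E1, ATP6V1C1, ATP6V1A, ATP6V1B2, ATP6V1H, ATP6V0D1 and ATP6V0A1 in both groups, and the libraries of ATP6V1H and ATP6V0D1 overlapped. ATP6V0D2, at 3.72 CPM per kilobase with YES1i, passed ATP6V0A2 at 2.34, whereas with DMSO it was last at 0.102. In SUM159 ATP6V0A2 and ATP6V0D2 were the lowest pair in both groups. ATP6V0D1 lay just above ATP6V1C1 in SUM159 with DMSO, with overlapping libraries, and below both ATP6V1C1 and ATP6V1H with YES1i. Summed per kilobase, the 9 genes other than ATP6V0D2 gave 164 ± 5.41 in MDA-MB-231 with YES1i and 108.6 ± 1.26 with DMSO, and 92.7 ± 3.61 in SUM159 with YES1i and 90.45 ± 2.68 with DMSO (SD, n = 4 each).

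The lines were also compared without inhibitor. At DMSO, 5 of the 9 genes were higher in MDA-MB-231 than in SUM159 and 1 was lower, where 76.6% of all genes were called, 37.8% higher and 38.7% lower. Calls among the 9 were thus no more frequent than over all genes. This comparison shares its DMSO libraries with the YES1i comparisons. ATP6V1C1 averaged 91.2 ± 2.98 CPM in MDA-MB-231 and 35.3 ± 1.27 CPM in SUM159 (SD, n = 4 each), a log2 difference of 1.37 (edgeR adjusted p = 3.82e-19). ATP6AP1 differed by 0.65 (adjusted p = 7.65e-12), ATP6V1H by 0.39 (adjusted p = 7.76e-06), ATP6V0D1 by 0.31 (adjusted p = 1.08e-05) and ATP6V1B2 by 0.29 (adjusted p = 0.000101). The gene lower in MDA-MB-231 was ATP6V0A1, at 39.6 ± 4.11 CPM against 57.9 ± 4.46 CPM in SUM159 (log2 difference -0.55, edgeR adjusted p = 6.9e-08).

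The rest of the pump was read as 16 further genes, of which 15 could be tested. ATP6V1G3, a kidney form of subunit G, had 4 reads in MDA-MB-231 with YES1i and 4 with DMSO and was not tested. In MDA-MB-231, 9 of the 15 were higher and 2 lower with YES1i, with a median log2 fold change of 0.43. In SUM159, 5 were higher and 6 lower, with a median of -0.0356, but under upper quartile scaling 2 were lower. A fit of SUM159 alone left 2 higher. Taking all subunits but ATP6V0D2 by sector, 9 of 12 V1 genes, 6 of 10 V0 genes and 2 of 2 accessory genes were higher in MDA-MB-231. In SUM159 these counts were 2 of 12, 4 of 10 and 1 of 2, with 2, 4 and 1 lower. The background shares are those given for the 9 genes.

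Like ATP6V0D1, ATP6V0B, ATP6V0C and ATP6AP2 were called higher in MDA-MB-231 and lower in SUM159. ATP6V0C and ATP6V0B encode the c and c'' proteolipids of the ring, to which subunit d is attached. ATP6V0B had 112, 109.8, 126 and 122 CPM in YES1i-treated MDA-MB-231, against 88.0, 92.1, 91.2 and 90.5 CPM with DMSO, and in SUM159 63.7, 42.4, 53.6 and 56.2 CPM with YES1i, against 60.3, 77.9, 75.1 and 64.3 CPM with DMSO. Its SUM159 groups overlapped. The log2 fold changes of ATP6V0B were 0.38 in MDA-MB-231 (edgeR adjusted p = 0.00228) and -0.36 in SUM159 (adjusted p = 0.00419). ATP6V0C changed by 0.38 in MDA-MB-231 (adjusted p = 0.0497) and by -0.48 in SUM159 (adjusted p = 0.011), with overlapping groups in both lines. Neither call of ATP6V0C held throughout: under upper quartile scaling the adjusted p was 0.0546 in MDA-MB-231 and 0.0619 in SUM159, and leaving out single libraries raised the MDA-MB-231 value to as much as 0.199, without YES1i replicate 1. ATP6AP2, the prorenin receptor and second accessory protein, changed by 0.45 in MDA-MB-231 (edgeR adjusted p = 8.52e-08) and by -0.21 in SUM159 (adjusted p = 0.00286), with no overlap in either line, but by -0.0926 (adjusted p = 0.148) in SUM159 under upper quartile scaling. The line differences were 0.74 for ATP6V0B, 0.86 for ATP6V0C and 0.67 for ATP6AP2 (adjusted p = 0.000275, 0.00402 and 1.62e-07).

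Genes higher in both lines were TCIRG1 (0.69 in MDA-MB-231 and 0.38 in SUM159), ATP6V0E1, a small membrane subunit (0.72 and 0.31), and ATP6V1G1, the widely used stalk subunit G (0.44 and 0.37). The SUM159 call of ATP6V0E1 was lost without DMSO replicate 3 or 4 (edgeR adjusted p = 0.0565 and 0.0543), and without YES1i replicate 2, the library that stood apart, the change was 0.15. For ATP6V1G1 the line difference of 0.08 did not pass the test (edgeR adjusted p = 0.511). That of TCIRG1 did not pass either (0.31, adjusted p = 0.0608), but it passed without MDA-MB-231 YES1i replicate 2, SUM159 DMSO replicate 4 or SUM159 YES1i replicate 1 (adjusted p = 0.0267, 0.0241 and 0.0104). ATP6V0E2 was lower in both lines (-0.43 and -0.26), though in SUM159 not under upper quartile scaling (-0.14, adjusted p = 0.196) or without DMSO replicate 2 or YES1i replicate 2 or 3 (adjusted p = 0.0657, 0.068 and 0.0814). ATP6V1F, of the central rotor, was higher in MDA-MB-231 (0.38, edgeR adjusted p = 7.36e-06) and changed by -0.04 in SUM159 (adjusted p = 0.668). ATP6V1D, its partner in the rotor, changed by 0.09 in MDA-MB-231 (adjusted p = 0.191) and fell by 0.25 in SUM159 (adjusted p = 0.0011, but 0.0614 under upper quartile scaling). It was called higher in MDA-MB-231 without YES1i replicate 1 (0.14, adjusted p = 0.0469). ATP6V1E2 fell by 0.75 in SUM159 (edgeR adjusted p = 0.00105) and changed by -0.36 in MDA-MB-231 (adjusted p = 0.14, or 0.04 without YES1i replicate 2). RNASEK passed in neither line (0.43 and -0.12), and ATP6V1G2, at 0.634 CPM with YES1i and 0.356 with DMSO in MDA-MB-231, passed in SUM159 (0.70, adjusted p = 0.0473), a call lost under most single-library omissions (adjusted p up to 0.183, without SUM159 YES1i replicate 2). ATP6V1D, ATP6V1E2, ATP6V1G2, ATP6V0E2 and RNASEK (with C17orf49) overlap other expressed genes, so their counts are uncertain.

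Other isoforms with restricted use also moved in MDA-MB-231, at low levels. ATP6V1C2, an isoform of subunit C known from kidney and lung, had 3.67, 4.08, 3.503 and 2.20 CPM with YES1i, against 0.581, 0.872, 0.666 and 0.593 CPM with DMSO in MDA-MB-231. SUM159 cells showed 1.67, 1.53, 1.71 and 1.08 CPM with YES1i, against 1.35, 1.10, 0.734 and 0.940 CPM with DMSO. It rose in MDA-MB-231 (log2 fold change 2.30, SE 0.264, edgeR adjusted p = 1.87e-08) and not past the threshold in SUM159 (0.50, adjusted p = 0.119), a difference of 1.81 (adjusted p = 0.000433). The gene overlaps PDIA6 on the other strand, which held more reads and changed by -0.185 in MDA-MB-231 and by -0.67 in SUM159. The count of ATP6V1C2 is therefore uncertain too. The share of ATP6V1C2 in the C subunits per kilobase was 4.12% ± 0.932 in MDA-MB-231 with YES1i and 1.24% ± 0.27 with DMSO (SD, n = 4 each). In SUM159 that share was larger, at 6.16% ± 1.1 with YES1i and 4.66% ± 1.07 with DMSO (SD, n = 4 each). ATP6V1B1, the kidney isoform of subunit B, had 18 reads with YES1i and 5 with DMSO in MDA-MB-231, a ratio of 3.95 (counting interval 1.41 to 13.6), and 9 of the 18 came from 1 library. In SUM159 it had more, 57 reads with YES1i and 48 with DMSO. It overlaps VAX2, which held more reads, on the same strand, so its count is uncertain. ATP6V0A4 went the other way in MDA-MB-231 (log2 fold change -0.35, edgeR adjusted p = 0.0177, but 0.0797, 0.0533 and 0.0615 without DMSO replicate 3, YES1i replicate 2 and YES1i replicate 3) and had 7 reads with YES1i and 1 with DMSO in SUM159, where it was called higher (2.44, edgeR adjusted p = 0.0334) with overlapping libraries. That SUM159 call was lost with limma-voom, with no filter, with the replicate block and without any of SUM159 DMSO replicates 1, 2 and 4 and YES1i replicates 2 and 4 (adjusted p = 0.0623 to 0.14). Its 1191 reads in MDA-MB-231 with DMSO stood against the 1 read in SUM159 with DMSO.

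Genes that act with the pump were read from 3 further lists. Of 11 tested assembly and regulation genes, 5 were higher and 2 lower in MDA-MB-231 (over all genes 26.8% higher and 22.1% lower), and 5 were higher and 3 lower in SUM159 (over all genes 25.1% higher and 26.5% lower). The 2 lower in MDA-MB-231 became 1 without YES1i replicate 3, and the 3 lower in SUM159 became 1 with RLE scaling, upper quartile scaling or DESeq2, and without SUM159 DMSO replicate 2, DMSO replicate 3 or YES1i replicate 2. CCDC115, an assembly factor that acts with ATP6AP1 at the endoplasmic reticulum, rose by 1.03 in MDA-MB-231 (edgeR adjusted p = 2.81e-11) and by 0.31 in SUM159 (adjusted p = 0.0044), and the lines differed by 0.71 (adjusted p = 4.26e-05). ATP6AP1L, a gene related in sequence to ATP6AP1, rose by 0.45 in MDA-MB-231 and by 1.27 in SUM159, a difference of -0.82 (adjusted p = 0.000542).

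Of 13 ion exchangers and channels of acidic compartments, which carry the ions that balance the pumped protons, 8 were higher and 0 lower in MDA-MB-231 (over all genes 26.8% and 22.1%), and 4 were higher and 1 lower in SUM159 (over all genes 25.1% and 26.5%). The 1 lower in SUM159 became 2 without SUM159 DMSO replicate 4 or YES1i replicate 1. Their median log2 fold changes were 0.64 in MDA-MB-231 and -0.00554 in SUM159. CLCN6, a chloride-proton exchanger of late endosomes, rose by 1.18 in MDA-MB-231 (edgeR adjusted p = 6.38e-14) and changed by -0.06 in SUM159 (adjusted p = 0.533). TPCN1, a cation channel of endosomes and lysosomes, rose by 1.04 in MDA-MB-231 and by 0.28 in SUM159. SLC9A9, an endosomal sodium-proton exchanger, rose by 1.38 and 0.42, with overlapping libraries in MDA-MB-231, where it did not pass without YES1i replicate 3 (edgeR adjusted p = 0.0992). Its MDA-MB-231 levels were low, 0.443 CPM with YES1i and 0.165 CPM with DMSO, against 14.5 and 10.9 CPM in SUM159. CLCN4 ran the other way, at -0.11 in MDA-MB-231 (adjusted p = 0.127) and 1.07 in SUM159 (adjusted p = 1.67e-09), a difference of -1.18 (adjusted p = 1.15e-08).

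The Ragulator complex and Rag GTPases sit beside the V-ATPase on the lysosome in amino acid sensing. Of 13 tested genes of Ragulator, the Rag GTPases, FLCN and the MiT/TFE factors, 11 were higher and 0 lower in MDA-MB-231 (over all genes 26.8% and 22.1%), and 5 were higher and 3 lower in SUM159 (over all genes 25.1% and 26.5%). The 3 lower in SUM159 were 0 with upper quartile scaling and 1 with RLE scaling, DESeq2, no filter, a mean count of at least 10, each line fitted alone or the replicate block, and also 1 without any of MDA-MB-231 DMSO replicates 1 to 4, MDA-MB-231 YES1i replicates 2 to 4, SUM159 DMSO replicates 2 and 3 and SUM159 YES1i replicates 3 and 4. LAMTOR1 (0.30 in MDA-MB-231 and -0.21 in SUM159), LAMTOR5 (0.29 and -0.16) and RRAGA (0.24 and -0.14) were called in opposite directions, and their line differences of 0.51, 0.45 and 0.38 passed the test (edgeR adjusted p = 1.04e-05, 0.000381 and 0.000305). Their SUM159 calls were all lost under upper quartile scaling, where the changes were -0.0944 for LAMTOR1, -0.039 for LAMTOR5 and -0.0167 for RRAGA (adjusted p = 0.155, 0.642 and 0.819), and those of LAMTOR5 and RRAGA under most other alternatives too, among them RLE scaling (adjusted p = 0.18 and 0.203), no filter (0.0764 and 0.183), the replicate block (0.0576 and 0.104) and most single-library omissions (adjusted p up to 0.204 for LAMTOR5, without SUM159 YES1i replicate 3, and up to 0.147 for RRAGA, without SUM159 DMSO replicate 2). Without SUM159 DMSO replicate 1 the change of LAMTOR5 was -0.12 (edgeR adjusted p = 0.158), and without SUM159 YES1i replicate 2 that of RRAGA was -0.12 (adjusted p = 0.101). RRAGD rose in both lines, by 1.28 in MDA-MB-231 and 2.10 in SUM159. TFEB rose by 0.42 in MDA-MB-231 (edgeR adjusted p = 0.00136) and changed by -0.16 in SUM159 (adjusted p = 0.214), and TFE3 by 0.20 (adjusted p = 0.00116) and -0.07 (adjusted p = 0.243). The means of MITF, of the same family, went the other way. They were 22.4 CPM with YES1i and 24.8 CPM with DMSO in MDA-MB-231, and 14.2 and 12.8 CPM in SUM159.

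Over the 16 libraries and 13208 protein-coding genes at 1 CPM or more in a group, the 5 genes whose log2 CPM ran most like that of ATP6V0D2 were CLCN7, CERCAM, KLHL21, SIGIRR and SMIM29. Their Pearson r values were 0.971, 0.962, 0.960, 0.960 and 0.957. The points fall in 4 groups with the YES1i-treated MDA-MB-231 libraries apart, and they share lines and treatments, so r describes that pattern only. CLCN7, the chloride-proton exchanger of lysosomes and of the osteoclast border, averaged 104.1 CPM in MDA-MB-231 with YES1i and 54.9 CPM with DMSO, and 50.2 CPM in SUM159 with YES1i and 46.5 CPM with DMSO. SMIM29 averaged 101 CPM in MDA-MB-231 with YES1i, against 40.0, 31.7 and 32.1 CPM in the other 3 groups in the same order.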

How the data were processed

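The authors deposited a single table of raw counts by gene for all 16 libraries, with gene lengths and coordinates. Listed in the submitters' processing notes are the build hg38, featureCounts 1.5.0-p3 and HISAT2 2.0.5. For strand, annotation release and multi-mapped or overlapping reads, no rule is given in the sources used here. Per the labels' protocols, polyA RNA was copied with random hexamers.

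Counts were fitted in edgeR 4.0.16 (R 4.3.3; TMM, filterByExpr by group, robust quasi-likelihood F test), with a mean for each of 4 groups over 16 libraries, and Benjamini-Hochberg adjustment over all 17647 tested genes. SE was the absolute log2 fold change over the root of F. Genes were called at an adjusted p under 0.05. The fit was tested on simulated data. Depth was 15876171 to 36261542 counts. The alternatives were DESeq2 1.42.0, limma-voom (limma 3.58.1), upper quartile and RLE scaling, other filters and thresholds, fits by line, a replicate block and leaving out each library. Levels between genes were compared as CPM per kilobase of the deposited gene length. That length may differ from the length of the transcripts expressed, so ratios, shares and orders between genes depend on it.

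All 10 genes were named, all 16 other V-ATPase genes were named once, and genes of the 3 further lists were named where changed at least 2-fold in a line or called in opposite directions. TFEB, TFE3 and MITF were added for their roles, after their values were seen. The members and lists were chosen with earlier results of these data known.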

Additional observations from a re-analysis of the deposited data

Results flagged for a closer look

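For each of the 10 genes and the a2 share, the values of every group were checked for a library far from the other 3 of its group, 44 checks in all, of which chance gives about 1 in 20. Of these, 2 stood out. ATP6V0D2 had 11.8 CPM in MDA-MB-231 YES1i replicate 3, against 11 to 11.1 CPM in the other 3 libraries. ATP6V0D1 had 52.7 CPM in SUM159 DMSO replicate 2, against 49.8 to 50.3 CPM in the other 3.

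The YES1i change differed between the lines, MDA-MB-231 minus SUM159, for 8 of the 9 tested genes by the edgeR test of the difference itself at an adjusted p under 0.05, where 31.1% of all genes passed. The log2 differences were 0.9062 for ATP6V0D1, 0.7848 for ATP6V1E1, 0.5129 for ATP6AP1, 0.488 for ATP6V1A, 0.4439 for ATP6V1H, 0.4077 for ATP6V1C1, 0.4064 for ATP6V0A1 and 0.2484 for ATP6V1B2.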

How the results depend on the processing

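In MDA-MB-231 the count of 8 genes higher, of the 9 tested, stood at 8 under every scaling, tool, filter, block and leave-one-out alternative. Requiring an absolute log2 fold change of at least 0.5 cut counts most: with YES1i in MDA-MB-231 to 4 of the 9 and 4 other V-ATPase genes higher and 0 others lower, in SUM159 to 0 of the 9 and 2 others higher and 1 other lower, in the line difference to 3 and 4 above 0, and at DMSO to 2 and 5 higher in MDA-MB-231. At an adjusted p under 0.01, 1 other gene was lower in MDA-MB-231, 2 others were higher in SUM159 and 0 others lay below 0 in the line difference. Upper quartile scaling gave 4 of the 9 higher and 2 others lower in SUM159. Others higher in SUM159 were 3 with no filter, 2 with each line fitted alone and 3 with the replicate block. At DMSO, 2 of the 9 were lower in MDA-MB-231 with limma-voom and 2 with no filter.

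Same-numbered libraries did not pair (correlations of their deviations -0.0671 to 0.0252, and 1 of 8 matched its own number best). With the replicate number as a block, 0 others lay below 0 in the line difference, the line difference of ATP6V1B2 had an edgeR adjusted p of 0.076, and the a2 share differences of -11.73 and -5.633 points had an exact sign-flip permutation p of 0.125, the smallest that 4 pairs allow.

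Leaving out 1 library at a time gave these ranges. Of the 9, 2 to 3 were higher and 1 to 2 lower in SUM159, 7 to 8 had a line difference above 0, and 1 to 2 were lower at DMSO. Of the others, 8 to 9 were higher and 1 to 2 lower in MDA-MB-231, 2 to 5 higher and 5 to 6 lower in SUM159, 6 to 8 above and 0 to 1 below 0 in the line difference, and 8 to 9 higher and 4 to 5 lower at DMSO. Single libraries that cut the others higher in SUM159 to 3 or fewer were DMSO replicates 2, 3 and 4 and YES1i replicates 2 and 4. The a2 share difference ran from -12.56 to -10.57 points in MDA-MB-231 and from -6.789 to -4.795 points in SUM159, where the exact permutation p reached 0.0571.

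The changes that turned sign were all uncalled: ATP6V0A2 in MDA-MB-231 (-0.01738 with no filter, -0.03086 with each line alone, -0.02452 to 0.03799 leaving out libraries), in SUM159 (0.05777 with upper quartile scaling, -0.1035 to 0.004275 leaving out libraries) and in the line difference (-0.0372 with upper quartile scaling). In SUM159 so did ATP6V1H (0.03921 with upper quartile scaling), ATP6V1A (0.01214 with RLE, 0.08169 with upper quartile scaling and 0.01171 with DESeq2) and ATP6V1B2 (-0.003279 to 0.07885 leaving out libraries). Further genes did so in SUM159: ATP6V1F (0.01419 with RLE, 0.08443 with upper quartile scaling, 0.01413 with DESeq2 and -0.1023 to 0.0017 leaving out libraries), CLCN6 (0.06251) and TFE3 (0.04972) with upper quartile scaling, and RNASEK (-0.3127 to 0.2206 leaving out libraries). The line difference turned for ATP6V1G1 (-0.03251 with upper quartile scaling) and ATP6V1G2 (-0.08363 to 0.2878 leaving out libraries). The cause was not tested.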
